A study of Homo sapiens with 36 samples.

Results

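K562 is a human chronic myeloid leukemia line of erythroid character that expresses fetal and embryonic globins. Its cells were compared after 24 h in 5% oxygen with the same cells after 24 h in 21% oxygen, the level of ordinary culture incubators. The comparison took the 3 libraries labelled 5% oxygen and the 3 labelled 21% oxygen at that time, 6 of the 36 libraries of a series with 3 oxygen levels, 4 times and 3 replicates each. The 3 libraries of 1% oxygen at 24 h, and the 6 of 5% and 21% oxygen at 6 h, served to place the result. All 36 libraries also gave the spread of a second fit, described below, on which most calls of passing genes rest. All cells were the unmodified line, seeded in 6-well plates and kept in an incubator set to their oxygen level. An effect of the incubator itself therefore cannot be told apart from that of oxygen. The labels do not say whether replicates were separate cultures, so p-values here reflect no more than the spread between the libraries. Since each library is bulk RNA, fewer cells that express a gene and less of its RNA per cell cannot be told apart.

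Cells sense oxygen mainly through prolyl hydroxylases of the EGLN family, which use oxygen to mark the alpha subunits of hypoxia-inducible factor (HIF) for breakdown by the VHL ubiquitin ligase. When oxygen is short, HIF accumulates and switches on genes for glucose uptake, glycolysis, mitophagy and its own hydroxylases. Oxygen is also a substrate of collagen prolyl hydroxylases, histone demethylases and several steps of sterol and fatty acid synthesis. Oxygen at 5% lies near the level of many tissues, and 21% lies above it.

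Expression was given as FPKM, fragment counts scaled for transcript length and library size, and was compared as log2(FPKM + 1), a scale that understates the change of weakly expressed genes. Of 21950 genes, 10277 had a mean of at least 1 FPKM over the 6 libraries and were tested. Markers of the labelled line were present, and all 9 stood at 11.8 FPKM or more in each of the 6 libraries. Of other cell types, 4 of 5 T and B cell markers (all but CD3D), 4 of 4 macrophage and granulocyte markers and 4 of 6 epithelial and fibroblast markers (all but EPCAM and COL1A2) stayed below 1 FPKM in all 6. The libraries differed as a whole. Summed FPKM was 758970, 663470 and 632400 in 5% oxygen against 780270, 900700 and 1171400 in 21% oxygen, so replicate 3 of 21% oxygen stood apart. Ribosomal protein genes took 25.7% to 27.4% of that sum in 5% oxygen and 28.3%, 30.4% and 36.6% in 21% oxygen. Of 394 olfactory receptor genes, taken as a rough measure of background, 21.6%, 37.3% and 67.3% were above 0 in 5% oxygen against 20.3%, 18.3% and 13.2% in 21% oxygen. Relative depth, estimated from the values of weakly expressed genes, was 0.976 to 1.05 in 5% oxygen and 0.735 to 0.874 in 21% oxygen. The part of total, background and depth in the differences was not tested. Values without replicate 3 of 21% oxygen are given beside the results.

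At 24 h few genes passed between 5% and 21% oxygen, and the number depended on how the spread was estimated. A limma test on the 6 libraries passed 1 of 10277 genes at an adjusted p under 0.05 (0.00973%), and 2626 genes (25.6%) had an unadjusted p under 0.05. That gene, SCARNA15, is a small Cajal body RNA and had 36.8, 20.1 and 18.5 FPKM in 5% oxygen against 0 in each library of 21% oxygen. In 1% oxygen at 24 h it was at 0 in every library, and it was above 0 in 11 of all 36 libraries, scattered over 7 groups besides the 5% group. Its adjusted p was 0.000556 with these 6 libraries and 0.0844 in the fit described next. When the spread was taken from all 36 libraries in 12 groups, 1002 genes passed (9.75%), 253 higher (2.46%) and 749 lower (7.29%) in 5% oxygen. Without replicate 3 of 21% oxygen, the same fit passed 50 genes (0.487%), all of them among the 1002, with 7 higher (0.0681%) and 43 lower (0.418%). These 2 fits are called the 6-library and the 36-library test below, and an adjusted p is from limma with Benjamini-Hochberg adjustment over the 10277 genes. The 6-library test was fixed as the main test, and the 36-library test is an alternative to it. In its fixed form the main test passed no gene of the lists below. In 1245 genes (12.1%) all libraries of 5% oxygen lay above all of 21% oxygen, and in 2303 genes (22.4%) all lay below. The counts without overlap in the gene lists below are to be read against these shares. Counts that passed the 36-library test are to be read against 2.46% higher and 7.29% lower. Without replicate 3 of 21% oxygen the shares for that test are 0.0681% and 0.418%.

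The 7 genes higher with and without that library were P4HA1, EGLN3, BHLHE40, ALDOC, SCD, TFRC and TLN1. They include 4 genes known as HIF targets, a fatty acid desaturase, the transferrin receptor, and talin, which links integrins to the cytoskeleton. The 43 lower genes include the cold-inducible RNA-binding protein RBM3, both ferritin chains (FTL and FTH1), the fetal globin HBG2, the stress factor DDIT3, the quinone reductase NQO1, the surface receptor CD33, vimentin (VIM) and 5 ribosomal protein genes. Rescaling each library to a common total (TPM) moves the median log2 difference of all genes from -0.03 to 0.36. After that step all 7 higher genes but only 4 of the 43 lower genes passed the 36-library test in the same direction. The 2 sets also differed in length, which the test did not use: the median transcript was 3473 nucleotides in the higher set and 827 in the lower set, against 1663 over all genes tested.

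P4HA1, a catalytic subunit of the collagen prolyl hydroxylase, gave the clearest difference among hypoxia-induced genes. It had 47.7, 49.6 and 43.8 FPKM in 5% oxygen against 26.5, 23.0 and 24.9 FPKM in 21% oxygen. The 2 groups lay far apart, and the library that deviates in its total fell between its fellows. Its log2 difference was 0.90 ± 0.11 (SE), also 0.90 without that library. Its adjusted p was 0.0911 in the 6-library test and 2.66e-05 in the 36-library test, and lay between 6.63e-07 and 0.533 over 18 alternative settings. In the authors' transcript table the difference sat in the most abundant P4HA1 transcript, at 36.9 ± 1.47 FPKM in 5% oxygen and 18.8 ± 2.00 FPKM in 21% oxygen (SD, n = 3).

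BHLHE40, a transcriptional repressor known as a HIF target, had 21.3, 20.03 and 19.9 FPKM in 5% oxygen against 13.5, 12.8 and 12.9 FPKM in 21% oxygen. Both groups were tight and did not overlap. The log2 difference was 0.61 ± 0.10, or 0.60 without replicate 3 of 21% oxygen. Its adjusted p was 0.161 in the 6-library test, 0.00236 in the 36-library test, and 0.00044 to 0.807 over the alternatives. The promoters of P4HA1 and BHLHE40 are shown as examples of genes that were higher under every setting tried and held a hypoxia response core. EGLN3, ALDOC and KDM3A, described next, were also higher under every setting, and the window of EGLN3 held no core. They run from 250 bases before to 50 bases after the start in RefSeq (GRCh38.p14), P4HA1 at chr10:73096817-73097116 on the minus strand and BHLHE40 at chr3:4979187-4979486 on the plus strand. Capitals mark ACGTG or GCGTG, the core of the hypoxia response element, searched on both strands, and a CACGTG holds 2 overlapping matches.
P4HA1: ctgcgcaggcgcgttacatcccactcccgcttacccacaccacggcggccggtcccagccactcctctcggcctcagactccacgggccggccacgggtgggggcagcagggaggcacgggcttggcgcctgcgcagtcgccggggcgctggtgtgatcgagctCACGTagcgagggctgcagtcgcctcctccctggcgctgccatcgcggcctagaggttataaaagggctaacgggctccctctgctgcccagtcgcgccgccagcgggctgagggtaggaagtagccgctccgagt
BHLHE40: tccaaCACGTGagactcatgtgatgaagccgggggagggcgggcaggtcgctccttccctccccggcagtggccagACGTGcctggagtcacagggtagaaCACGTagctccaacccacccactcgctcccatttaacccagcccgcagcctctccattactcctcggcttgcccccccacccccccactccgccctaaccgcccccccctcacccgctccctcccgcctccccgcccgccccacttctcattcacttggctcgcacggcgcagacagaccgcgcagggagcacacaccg
P4HA1 held 1 match and BHLHE40 held 4. Such a core occurred in 48.4% of 27305 RefSeq promoters of this length, and in 10 of 12 hypoxia-induced genes searched that had an entry, with none in the windows of EGLN3 and PDK1. A match is a description of letters, not of a bound site.

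EGLN3, the oxygen-sensing prolyl hydroxylase that HIF itself induces, had 14.9, 12.5 and 13.1 FPKM in 5% oxygen against 6.77, 6.77 and 5.04 FPKM in 21% oxygen. Its groups did not overlap. The log2 difference of 1.02 ± 0.14 became 0.89 without the deviating library, with adjusted p of 0.161 in the 6-library and 0.00253 in the 36-library test and a range of 6.54e-06 to 0.807. ALDOC, the brain-type aldolase of glycolysis, stood at 39.7, 39.7 and 41.0 FPKM in 5% oxygen against 26.5, 27.3 and 35.5 FPKM in 21% oxygen, and here replicate 3 of 21% oxygen lay nearest to the 5% libraries. Its log2 difference was 0.43 ± 0.13, and 0.56 without that library (adjusted p 0.161 and 0.0129, range 0.00141 to 0.849). KDM3A, a histone H3K9 demethylase, had 8.54, 9.14 and 9.24 FPKM in 5% oxygen against 6.32, 6.23 and 3.64 FPKM in 21% oxygen. PDK1, the mitochondrial kinase that inhibits pyruvate dehydrogenase, was nearly constant in 5% oxygen at 6.89, 6.96 and 6.87 FPKM, against 5.596, 4.45 and 1.91 FPKM in 21% oxygen. For both, replicate 3 of 21% oxygen was the lowest library and set much of the size: the log2 difference of KDM3A was 0.67 with it and 0.45 without, and that of PDK1 was 0.75 with it and 0.40 without. Both passed the 36-library test with it (adjusted p 0.0358 and 0.0175) and not without it (0.413 and 0.319). ANKRD37, an ankyrin repeat gene known to be induced by HIF, averaged 3.79 ± 1.205 FPKM in 5% oxygen and 1.25 ± 0.977 FPKM in 21% oxygen (SD, n = 3). Its log2 difference was 1.14 with and 1.47 without replicate 3 of 21% oxygen, with adjusted p of 0.0313 and 0.0641 in the 36-library test.

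**Figure D1:**
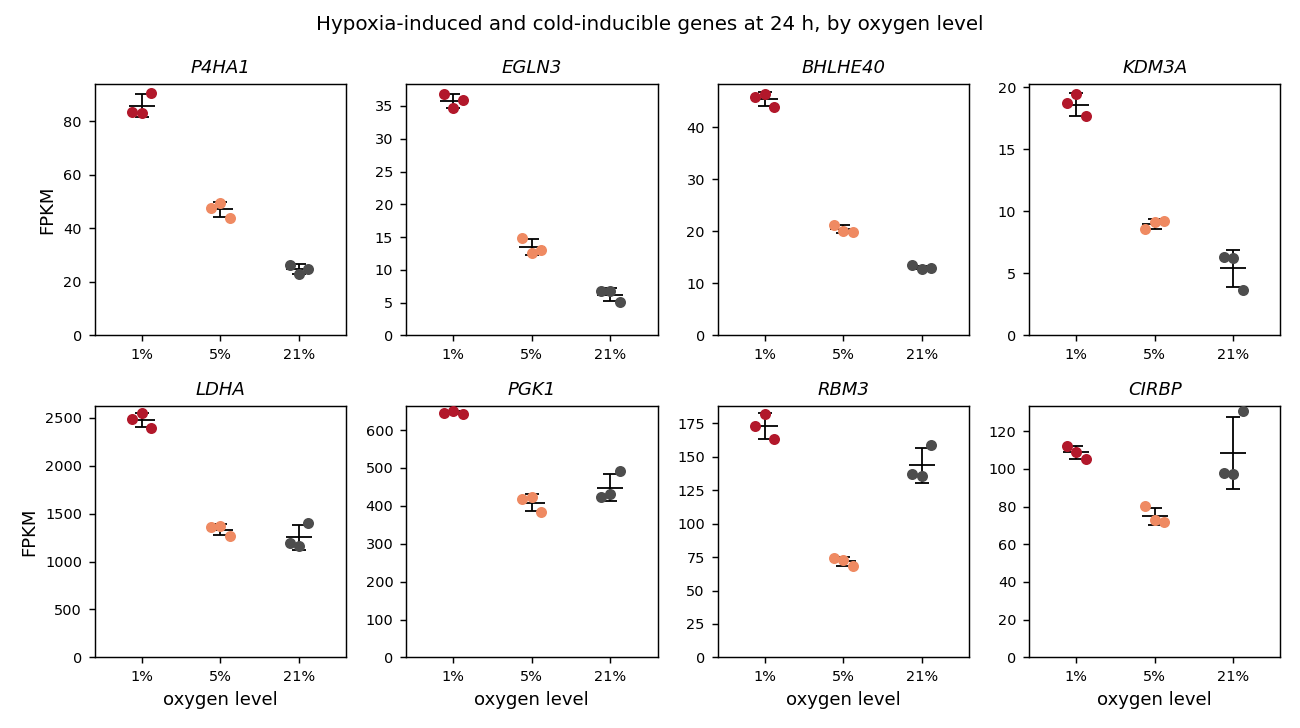
FPKM of 6 hypoxia-induced and 2 cold-inducible genes at 24 h, with oxygen level in percent on the x axis, 1 point per library, and mean with SD as bars. P4HA1, EGLN3, BHLHE40 and KDM3A in 5% oxygen lie between the 1% and the 21% libraries, LDHA and PGK1 in 5% oxygen lie beside the 21% libraries, and RBM3 is lowest in 5% oxygen at 68.4 to 74.6 FPKM.

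Several of the best known hypoxia genes did not pass at 5% oxygen, and for some of them this depended on the scaling. LDHA, which makes lactate, had 1363, 1367 and 1268 FPKM in 5% oxygen against 1194, 1161 and 1397 FPKM in 21% oxygen, and the groups overlapped. PGK1, a glycolytic kinase, had 418, 425 and 383 FPKM in 5% oxygen against 424, 430.0 and 491 FPKM in 21% oxygen, again with overlap. The mitophagy receptor BNIP3 averaged 87.2 ± 2.73 FPKM in 5% oxygen and 79.5 ± 8.93 FPKM in 21% oxygen, and the angiogenic factor VEGFA 3.24 ± 0.328 FPKM in 5% oxygen and 3.67 ± 0.378 FPKM in 21% oxygen (SD, n = 3). Their log2 differences lay between -0.14 and 0.14, with adjusted p of 0.417 to 0.766 in the 2 tests. Quantile normalization forces the libraries to 1 distribution. Over the 6 libraries it gave log2 differences of 0.67, 0.36 and 0.31 for LDHA, BNIP3 and PGK1. With this normalization over all 36 libraries, the 36-library test passed the same genes (adjusted p 0.000232, 0.0165 and 0.02295). The log2 differences of that fit are not given here. The 36-library test also passed them as higher after rescaling to a common total (TPM), with 0.55, 0.59 and 0.32 (adjusted p 0.00406, 0.00331 and 0.0227), a step that moves the median of all genes to 0.36. The sign of PGK1 thus turns under both scalings, and that of VEGFA turns after TPM. CA9, ADM and NDRG1, a carbonic anhydrase, a vasodilator peptide and a stress-response gene widely used as hypoxia markers, were at most 0.176 FPKM in all 6 libraries and were not tested. HIF1A RNA was 11.9, 13.4 and 11.2 FPKM in 5% oxygen against 13.6, 11.7 and 6.52 FPKM in 21% oxygen, with overlapping groups and a log2 difference of 0.23 that became -0.05 without replicate 3 of 21% oxygen.

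Most genes of the hypoxia group overlapped between 5% and 21% oxygen: of all 50 tested, 15 were higher and 7 lower without overlap. Over all 10277 genes, 12.1% were higher and 22.4% lower without overlap, a smaller share higher and a larger share lower than in this group. In the 36-library test 2.46% of all genes passed as higher and 7.29% as lower. Of 21 glycolysis and glucose uptake genes tested, 5 had all libraries of 5% oxygen above those of 21% oxygen and 4 had all below, and 2 higher and 1 lower passed the 36-library test. The median log2 difference of these genes was 0.03, and 0.10 without replicate 3 of 21% oxygen, against -0.03 over all genes in both cases. Of 29 other hypoxia-induced genes, 10 were higher and 3 lower without overlap, 7 and 2 passed the 36-library test (3 and 1 also without replicate 3 of 21% oxygen), and the median was 0.08, or 0.07 without that library. The 2 that passed as lower were FAM162A and HIGD1A, both mitochondrial proteins: FAM162A averaged 134 FPKM in 5% oxygen and 217 FPKM in 21% oxygen, and HIGD1A 129 FPKM in 5% oxygen and 164 FPKM in 21% oxygen. Without replicate 3 of 21% oxygen their adjusted p was 0.0487 and 0.202, and after TPM the difference of HIGD1A was 0.11. Of 9 oxygen sensing genes and HIF subunits, 3 were higher without overlap (EGLN3, CITED2 and VHL) and none lower. CITED2, a competitor of HIF for its coactivator, and VHL did not pass the 36-library test (adjusted p 0.822 and 0.829).

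The list of oxygen-dependent demethylases holds histone demethylases, the TET genes that act on DNA, and their relative JARID2, and had a positive median log2 difference of 0.35, or 0.26 without replicate 3 of 21% oxygen. Of 15 tested, 6 were higher without overlap and 0 lower, against 12.1% and 22.4% of all genes. In the 36-library test 1 of the 15 (KDM3A) passed as higher, against 2.46% of all genes, and none without that library. KDM5C, an H3K4 demethylase, averaged 13.3 ± 1.49 FPKM in 5% oxygen and 9.15 ± 1.85 FPKM in 21% oxygen (log2 difference 0.51, adjusted p 0.161 in the 6-library and 0.107 in the 36-library test, with a log2 difference of 0.35 without replicate 3 of 21% oxygen). Its relative KDM5A averaged 5.44 ± 0.124 FPKM in 5% oxygen and 3.84 ± 0.699 FPKM in 21% oxygen (SD, n = 3), a log2 difference of 0.42 with and 0.32 without that library (adjusted p 0.182 and 0.735 in the 36-library test).

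Set beside 1% oxygen at the same time, 5% oxygen gave a weaker hypoxia pattern. A limma test on the 9 libraries of 24 h passed 52 genes for 5% minus 1% oxygen (0.506%), 2 higher (0.0195%) and 50 lower (0.487%) in 5% oxygen. Of 50 hypoxia and glycolysis genes tested, 39 had a higher mean in 1% than in 21% oxygen, and in 27 of these the mean in 5% oxygen lay between. The shares of all genes with these orders were not counted, so both numbers are a description only. The test passed 18 of the 50 as lower in 5% than in 1% oxygen. In 10 of those 18 all 5% libraries also lay above all 21% libraries, in 7 the 5% and 21% libraries overlapped, and in 1 (SLC6A8, a creatine transporter) the 5% libraries lay below. Both comparisons use the same 5% libraries, so these counts describe the order of the 3 levels and are no test; 15 of all 10277 genes (0.146%) had all 5% libraries above the 21% libraries and passed as lower than 1% oxygen. PFKFB4, which makes the activator of phosphofructokinase, had 8.07, 9.60 and 8.53 FPKM in 5% oxygen against 31.5, 32.4 and 35.02 FPKM in 1% oxygen, a log2 difference of -1.80 ± 0.12 (adjusted p 0.000103). Against 21% oxygen, at 8.01, 6.43 and 5.83 FPKM, the same gene differed by 0.33 ± 0.14 (adjusted p 0.194 in the 6-library test). EGFL7, a secreted factor of blood vessels, was likewise near its 21% level, with 60.2 ± 2.64 FPKM in 5% oxygen and 195 ± 9.14 FPKM in 1% oxygen, and 50.6 ± 8.28 FPKM in 21% oxygen (SD, n = 3). The other gene besides SCARNA15 that was higher in 5% than in 1% oxygen was CHORDC1, an HSP90 cochaperone, at 22.3 ± 0.982 FPKM in 5% oxygen and 13.8 ± 0.846 FPKM in 1% oxygen (adjusted p 0.0177).

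**Figure D2:**
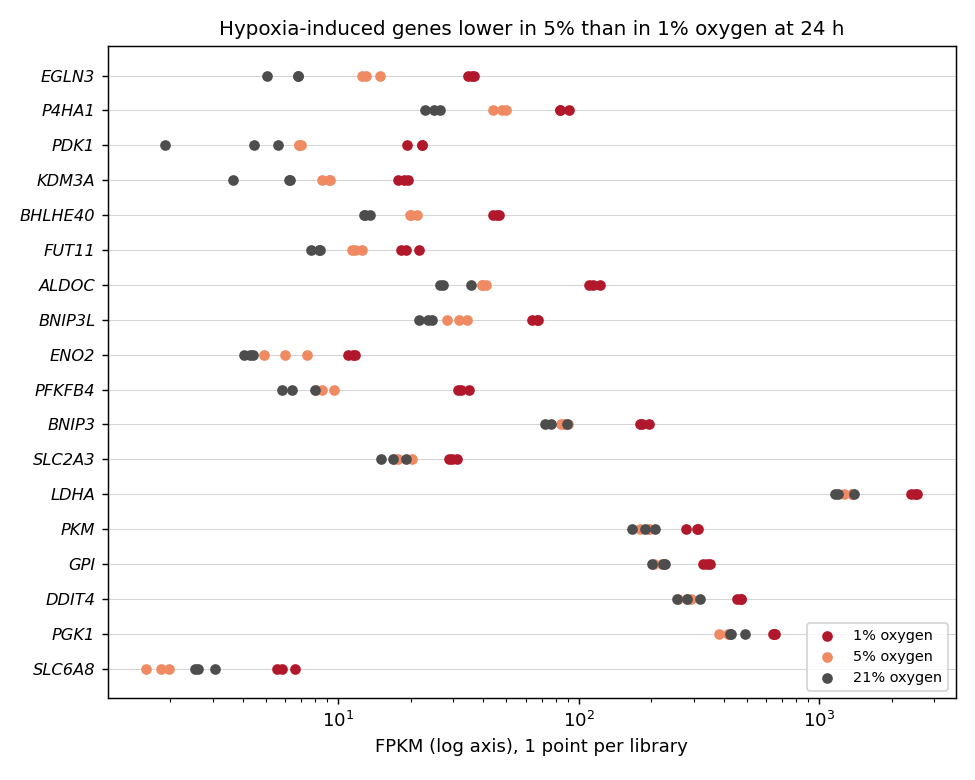
FPKM on a log axis, 1 point per library of 24 h, for the 18 hypoxia and glycolysis genes that were lower in 5% than in 1% oxygen by the 9-library test. From EGLN3 down to PFKFB4 the 5% libraries lie above all 21% libraries, from BNIP3 to PGK1 they mix with them, and SLC6A8 lies below.

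RBM3 did not follow the order of the oxygen levels. This RNA-binding protein, induced by mild cold, had 74.6, 72.5 and 68.4 FPKM in 5% oxygen against 137, 135 and 159 FPKM in 21% oxygen. It was the lower gene with the smallest p of all genes tested, and no library of 5% oxygen came near one of 21% oxygen. The log2 difference was -0.99 ± 0.11, or -0.91 without replicate 3 of 21% oxygen, and it stayed between -1.03 and -0.54 over 18 alternatives. Its adjusted p was 0.0797 in the 6-library test and 5.25e-08 in the 36-library test, with a range of 2.74e-10 to 0.415. Without replicate 3 of 21% oxygen, the 6-library test gave an adjusted p of 0.0434. After a correction for transcript length and GC content, described below, that test gave 0.0386. In 1% oxygen RBM3 stood at 173, 182 and 163 FPKM, above both other levels, and 5% minus 1% oxygen was -1.25 ± 0.10 (adjusted p 0.000159). CIRBP, its cold-inducible relative, had 80.1, 72.6 and 72.0 FPKM in 5% oxygen against 97.7, 97.1 and 130.5 FPKM in 21% oxygen. The groups did not overlap, but the log2 difference of -0.52 ± 0.14 became -0.38 without replicate 3 of 21% oxygen and -0.06 after rescaling to TPM. The log2 difference between 5% and 21% oxygen for RBM3 was -0.31 at 6 h, -1.01 at 3 d and -0.46 at 6 d.

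Some lipid synthesis genes passed the 36-library test as higher in 5% oxygen, most of them no longer without replicate 3 of 21% oxygen. Of 26 cholesterol synthesis genes, 11 were higher and 2 lower without overlap, against 12.1% and 22.4% of all genes. In the 36-library test 9 passed as higher and 0 as lower, against 2.46% and 7.29% of all genes. The median log2 difference was 0.30, or 0.24 without replicate 3 of 21% oxygen. Without that library, none of the 26 passed. Of 16 fatty acid synthesis genes, 7 were higher and 1 lower without overlap, 4 and 0 passed, 1 of them (SCD) also without that library, and the median was 0.24 in both cases. SCD, the stearoyl-CoA desaturase, itself an oxygen-using enzyme, had 87.6, 90.8 and 80.3 FPKM in 5% oxygen against 65.6, 61.8 and 53.2 FPKM in 21% oxygen. Its groups did not overlap, and its log2 difference was 0.51 ± 0.12, or 0.43 without that library (adjusted p 0.161 in the 6-library and 0.000403 in the 36-library test, range 0.000139 to 0.807).

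FASN, the fatty acid synthase, had 39.0, 43.2 and 40.9 FPKM in 5% oxygen against 27.0, 25.8 and 22.5 FPKM in 21% oxygen. FADS1, a desaturase of long polyunsaturated fatty acids, had 64.0, 75.2 and 74.0 FPKM in 5% oxygen against 49.7, 42.6 and 33.2 FPKM in 21% oxygen. Neither pair of groups overlapped, and both genes passed the 36-library test (adjusted p 0.00655 and 0.00399), but not without replicate 3 of 21% oxygen (0.106 and 0.0806). The log2 differences were 0.69 ± 0.11 for FASN and 0.77 ± 0.16 for FADS1, and 0.61 for each without that library. INSIG1, which holds sterol sensing in the endoplasmic reticulum, had 22.4, 32.4 and 53.4 FPKM in 5% oxygen against 14.9, 14.9 and 12.4 FPKM in 21% oxygen, so that all 5% libraries lay above the 21% libraries but far from each other. It passed the 36-library test with replicate 3 of 21% oxygen (adjusted p 0.01398) and not without it (0.146), and its log2 difference was 1.22 and 1.14. HMGCS1, an early enzyme of the pathway, overlapped between the groups, at 9.21 ± 1.96 FPKM in 5% oxygen and 7.07 ± 1.15 FPKM in 21% oxygen (SD, n = 3). In 5% minus 1% oxygen no gene of either list passed, so the 2 low levels were not distinguished by these lists, which does not show that they were alike.

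SREBF2 encodes the transcription factor that drives the cholesterol genes when sterols run low. It had 6.78, 8.34 and 11.6 FPKM in 5% oxygen against 4.56, 3.89 and 3.38 FPKM in 21% oxygen. The lowest 5% library lay above the highest 21% library, and the 5% libraries of both SREBF2 and INSIG1 were ranked as their olfactory receptor shares are, whose part in the result was not tested. The log2 difference was 0.98 ± 0.19, or 0.90 without replicate 3 of 21% oxygen, with adjusted p of 0.161 in the 6-library test, 0.0209 in the 36-library test and 0.191 in that test without the library. Its promoter is shown because it alone, of 7 lipid genes searched that had an entry, held TCACNCNAC, the form of the sterol regulatory element searched here on both strands and marked by capitals. It lies at chr22:41832855-41833154 on the plus strand of GRCh38.p14 (RefSeq).
SREBF2: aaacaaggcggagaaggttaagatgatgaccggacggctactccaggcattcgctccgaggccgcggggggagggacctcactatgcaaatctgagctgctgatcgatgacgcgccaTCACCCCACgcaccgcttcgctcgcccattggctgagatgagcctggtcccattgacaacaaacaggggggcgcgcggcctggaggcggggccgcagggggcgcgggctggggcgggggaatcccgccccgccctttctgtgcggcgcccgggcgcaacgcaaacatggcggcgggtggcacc
This form occurred in 2.57% of the 27305 promoters. No match in the other windows says only that these letters are not there.

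**Figure D3:**
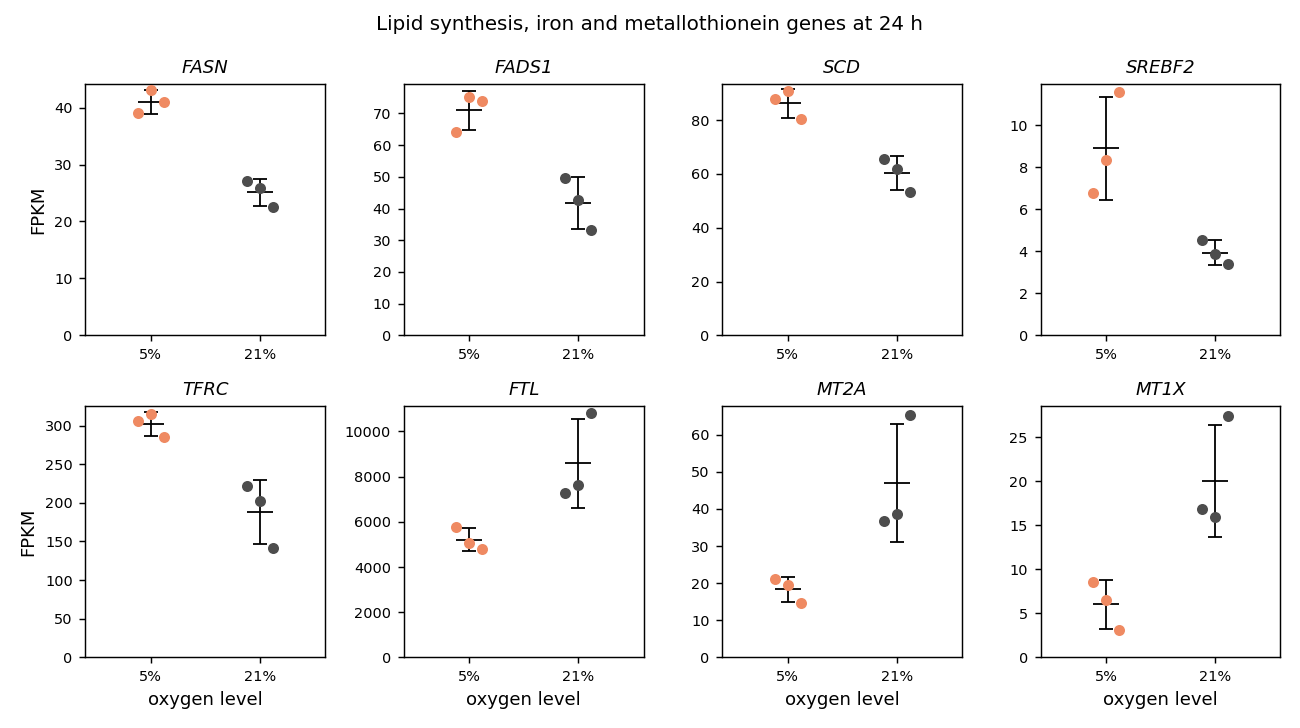
FPKM in 5% and 21% oxygen at 24 h of 4 lipid genes, the transferrin receptor, a ferritin chain and 2 metallothioneins, 1 point per library, with mean and SD as bars. The 4 lipid genes and TFRC are higher in all 5% libraries, and FTL, MT2A and MT1X are lower in all of them; for FTL the sign turns under quantile normalization.

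The transferrin receptor was higher and both ferritin chains were lower in 5% oxygen, while the iron handling list as a whole lay near all genes. TFRC, the transferrin receptor that brings iron into the cell, had 306, 314 and 285 FPKM in 5% oxygen against 221, 202 and 142 FPKM in 21% oxygen. The log2 difference was 0.70 ± 0.17, or 0.51 without replicate 3 of 21% oxygen, which was the lowest library (adjusted p 0.161 in the 6-library and 0.00114 in the 36-library test, range 0.000263 to 0.807). FTL, the light chain of the iron store ferritin, had 5762, 5077 and 4791 FPKM in 5% oxygen against 7284, 7634 and 10833 FPKM in 21% oxygen. FTH1, the heavy chain, had 1046, 935 and 914 FPKM in 5% oxygen against 1223, 1198 and 1587 FPKM in 21% oxygen. No groups overlapped in these 3 genes. FTL differed by -0.70 and FTH1 by -0.46 on the log2 scale, or by -0.52 and -0.33 without replicate 3 of 21% oxygen, and both passed the 36-library test in each case. Quantile normalization turned both to 0.09, TPM left -0.24 for FTL and -0.0033 for FTH1, and TFRC kept its sign under all alternatives. Among all 15 iron handling genes tested, 2 were higher and 5 lower without overlap, against 12.1% and 22.4% of all genes. The median of the list was -0.03, close to that of all genes.

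Of 5 metallothionein and zinc transporter genes tested, 2 metallothioneins, small proteins that bind zinc and copper, were lower without overlap and 1 (the zinc importer SLC39A10) was higher. The shares of all genes were 22.4% lower and 12.1% higher without overlap. MT2A had 21.0, 19.4 and 14.5 FPKM in 5% oxygen against 36.7, 38.8 and 65.3 FPKM in 21% oxygen. MT1X had 8.52, 6.51 and 3.07 FPKM in 5% oxygen against 16.9, 15.9 and 27.4 FPKM in 21% oxygen. The groups did not overlap for either gene, and in 21% oxygen replicate 3 was the highest library in both. The log2 difference of MT2A was -1.28 ± 0.23, or -1.02 without that library, with adjusted p of 0.161 in the 6-library test, 0.00632 in the 36-library test and 0.122 in that test without the library. That of MT1X was -1.63 ± 0.32, or -1.39 without the library, and it did not pass either test (adjusted p 0.161 and 0.272). At the later times the sign was the other way: MT2A differed between 5% and 21% oxygen by 2.37 at 3 d and 2.73 at 6 d. The promoter of MT2A at chr16:56608334-56608633 on the plus strand of GRCh38.p14 (RefSeq) is shown for its repeated metal response cores, TGCNCNC on either strand, in capitals.
MT2A: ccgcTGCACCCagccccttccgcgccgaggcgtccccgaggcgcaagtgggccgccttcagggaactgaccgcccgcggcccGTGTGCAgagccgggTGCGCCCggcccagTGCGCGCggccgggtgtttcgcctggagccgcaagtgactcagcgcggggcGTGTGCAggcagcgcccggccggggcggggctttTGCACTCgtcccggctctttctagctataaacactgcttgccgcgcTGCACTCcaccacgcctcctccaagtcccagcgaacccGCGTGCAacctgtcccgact
It held 8 such cores and that of MT1X held 4, and 55.2% of the 27305 promoters held at least 1.

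Several globin genes passed the 36-library test as lower in 5% oxygen, most of them no longer without replicate 3 of 21% oxygen. The medians of the other erythroid lists lay near that of all genes. HBG1, a fetal gamma globin nearly identical to HBG2 so that short reads can be shared between them, had 1157, 941 and 934 FPKM in 5% oxygen against 1207, 1538 and 2183 FPKM in 21% oxygen. HBZ, the embryonic zeta globin, had 4515, 3865 and 3722 FPKM in 5% oxygen against 4630.3, 5925 and 8973 FPKM in 21% oxygen. In both, replicate 1 of 21% oxygen lay just above the highest 5% library, and replicate 3 lay far above; quantile normalization turned HBZ to 0.07. Without replicate 3 of 21% oxygen the log2 difference of HBG1 was -0.44 in place of -0.67 and that of HBZ -0.38 in place of -0.64, and neither passed the 36-library test (adjusted p 0.0987 and 0.401, against 0.00506 and 0.0268 with it). Of 23 globin and red cell membrane genes tested, 5 were higher and 9 lower without overlap, and 0 and 5 passed the 36-library test, of which 1 (HBG2) also passed without that library. The median was -0.38, or -0.24 without replicate 3 of 21% oxygen, and it was 0.08 after rescaling to TPM, where that of all genes was 0.36. AHSP, the chaperone of alpha globin, averaged 49.9 ± 5.13 FPKM in 5% oxygen and 93.6 ± 27.4 FPKM in 21% oxygen, while EPB41, a protein of the red cell cytoskeleton, averaged 56.7 ± 1.91 FPKM in 5% oxygen and 37.3 ± 11.7 FPKM in 21% oxygen (SD, n = 3). Their log2 differences were -0.85 and 0.64, or -0.68 and 0.39 without replicate 3 of 21% oxygen, and neither passed the 36-library test. ALAS2, the erythroid enzyme that starts heme synthesis, overlapped, at 41.8 ± 3.22 FPKM in 5% oxygen and 44.9 ± 2.26 FPKM in 21% oxygen. Of 14 heme synthesis genes, 1 was higher and 4 lower without overlap, 2 passed the 36-library test as lower and none without that library, and the median was -0.04. Of 10 erythroid transcription factors, 2 were higher and 4 lower without overlap, 0 passed, and the median was -0.10. Among all genes tested, 12.1% were higher and 22.4% lower without overlap. In the 36-library test 2.46% of all genes passed as higher and 7.29% as lower.

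Genes of the ribosome, the respiratory chain and the proteasome were lower in 5% oxygen in large numbers. Few of them passed the 36-library test without replicate 3 of 21% oxygen. Of 78 cytosolic ribosomal protein genes, 62 were lower and 0 higher without overlap, against 22.4% and 12.1% of all genes. In the 36-library test 77 passed as lower, against 7.29% of all genes. The median log2 difference of the 78 was -0.69, or -0.45 without replicate 3 of 21% oxygen, and 5 passed that test without the library. RPL10 had 1023, 876 and 844 FPKM in 5% oxygen against 1164, 1329 and 1811 FPKM in 21% oxygen, and the 3 libraries of 21% oxygen were spread more widely than the gap between the groups. Many of these genes have processed pseudogenes close to them in sequence, so their FPKM is uncertain. Of 45 complex I genes, 33 were lower and 0 higher without overlap, with a median of -0.63, or -0.38 without that library, and 25 passed the 36-library test as lower but 1 without it. NDUFC2, a subunit of complex I, averaged 125 ± 17.3 FPKM in 5% oxygen and 204 ± 53.4 FPKM in 21% oxygen, and COX7A2, a subunit of cytochrome oxidase, 339 ± 60.7 FPKM in 5% oxygen and 652 ± 228 FPKM in 21% oxygen (SD, n = 3). Without replicate 3 of 21% oxygen their log2 differences were -0.48 and -0.63, in place of -0.68 and -0.90, and neither passed (adjusted p 0.0641 and 0.161). Among 41 genes of complexes II to V, 1 was higher and 30 were lower without overlap, with a median of -0.62, or -0.40 without that library, and the 25 that passed as lower became 0. For 76 mitochondrial ribosomal protein genes the counts were 0 higher and 61 lower, with a median of -0.42, which became -0.27 without that library and 0.03 after rescaling to TPM, and the 29 that passed as lower became 0 without the library. Of 31 proteasome genes, 0 were higher and 29 lower, with a median of -0.38, which became -0.25 without that library, 0.03 under quantile normalization and 0.07 after rescaling to TPM, and the 13 that passed as lower became 0 without the library.

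The size of these differences depended on how the libraries were scaled, and on 1 library. Under quantile normalization the median of the cytosolic ribosomal protein genes was -0.08, against -0.02 over all genes. The medians for complex I and for complexes II to V were -0.23 and -0.12 under that normalization. Rescaling to TPM moved the median of all genes from -0.03 to 0.36, while the median of the ribosomal protein genes was then -0.24. After this rescaling 0 higher and 4 lower of the 78 passed the 36-library test. The medians for complex I and for complexes II to V were then -0.17 and -0.16. MPC1, which carries pyruvate into the mitochondrion, had 249, 214 and 218 FPKM in 5% oxygen against 298, 299.5 and 369 FPKM in 21% oxygen, a log2 difference of -0.50 that was -0.40 without replicate 3 of 21% oxygen and -0.04 after rescaling.

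**Figure D4:**
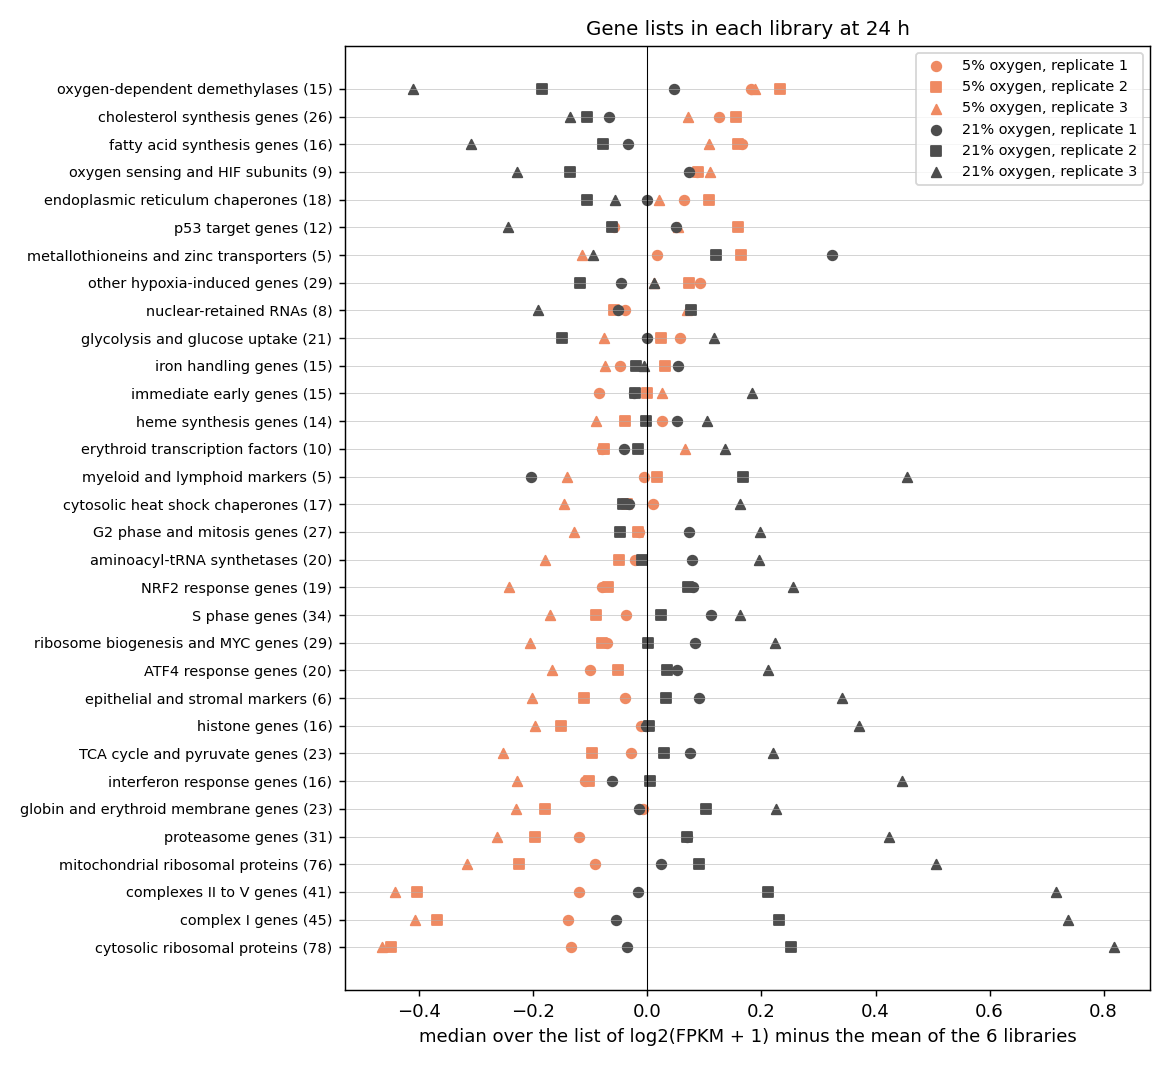
Median over each gene list of log2(FPKM + 1) minus the mean of the 6 libraries, 1 symbol per library, with the number of genes tested in brackets. Ribosomal protein, complex I and complexes II to V genes lie highest in replicate 3 of 21% oxygen and lowest in replicates 2 and 3 of 5% oxygen, and in both lipid lists and the demethylases all 5% libraries lie above all 21% libraries, with replicate 3 of 21% oxygen lowest. Rescaling to TPM turns the sign of several list medians, such as proteasome (0.07) and mitochondrial ribosomal proteins (0.03). It moves the median of all genes to 0.36, so both still lie below all genes.

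Levels also moved with transcript length across libraries, taken here as the median over a gene's protein-coding GENCODE transcripts, some of which are partial. The median log2 difference was -0.23 for 153 genes with transcripts up to 500 nucleotides and 0.22 for 715 genes over 5000 nucleotides, and -0.13 and 0.13 without replicate 3 of 21% oxygen. In that library alone, the median deviation from the mean of the 6 went from 0.37 in the shortest class to -0.30 in the longest. Across genes, which are not independent replicates, Pearson's r between log2 length and the difference was 0.30. Removing a smooth trend in length and GC content from each library left 409 genes that passed the 36-library test, 118 higher and 291 lower. Of the 50 genes that passed with and without replicate 3 of 21% oxygen, 4 of the 7 higher (P4HA1, EGLN3, ALDOC and TFRC) and 13 of the 43 lower also passed after that correction.

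**Figure D5:**
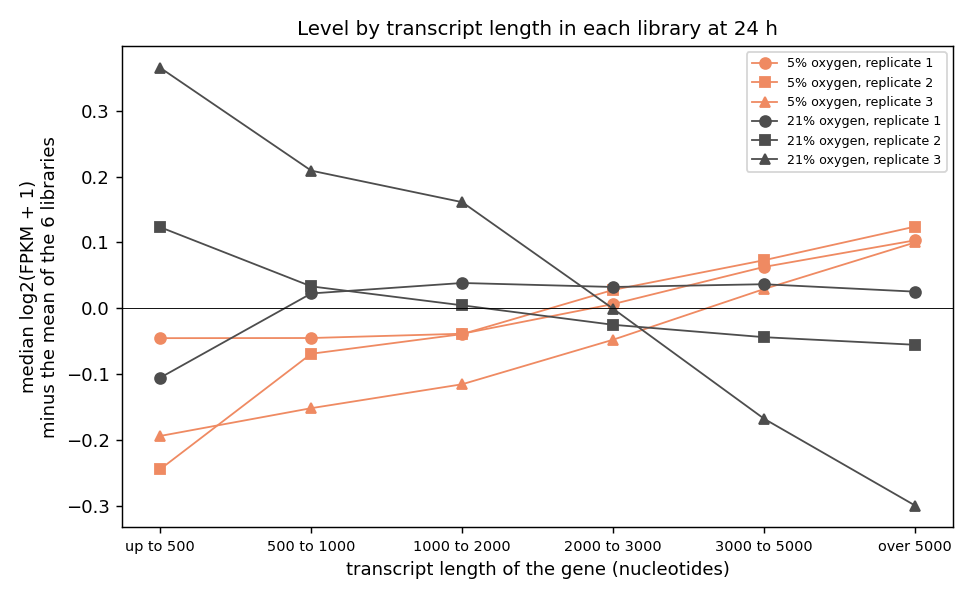
Median deviation of log2(FPKM + 1) from the mean of the 6 libraries, by class of transcript length in nucleotides, 1 line per library. Replicate 3 of 21% oxygen falls from 0.37 to -0.30 with length, the 5% libraries slope the other way, and replicate 1 of 21% oxygen is nearly level above 500 nucleotides.

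Among stress genes, DDIT3, a transcription factor of the unfolded protein and amino acid responses, was lower with and without the deviating library. It had 96.4, 77.1 and 85.2 FPKM in 5% oxygen against 123, 123 and 160.2 FPKM in 21% oxygen, a gap without overlap. The log2 difference was -0.64 ± 0.14, or -0.51 without replicate 3 of 21% oxygen (adjusted p 0.161 in the 6-library and 0.00156 in the 36-library test, range 0.000285 to 0.807). Of 20 ATF4 response genes, to which DDIT3 belongs, 2 were higher and 10 lower without overlap, against 12.1% and 22.4% of all genes. The median of this list was -0.22, and it became -0.15 without that library and 0.07 under quantile normalization. NQO1, an NRF2 target, had 61.7, 58.6 and 55.1 FPKM in 5% oxygen against 80.8, 74.9 and 103 FPKM in 21% oxygen, and AKR1C1, a ketosteroid reductase also under NRF2 control, had 10.1, 9.99 and 9.98 FPKM in 5% oxygen against 15.9, 14.6 and 15.4 FPKM in 21% oxygen. Neither gene overlapped between the groups. NQO1 passed the 36-library test with and without replicate 3 of 21% oxygen (adjusted p 0.00156 and 0.0267, log2 difference -0.54 and -0.41), and AKR1C1 passed with it but not without it (0.0135 and 0.122), although its log2 difference was -0.56 in both cases. Of 19 NRF2 response genes, 1 was higher and 9 lower without overlap, and the median of -0.20 became -0.13 without that library, 0.07 under quantile normalization and 0.23 after rescaling to TPM, where that of all genes was 0.36.

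The 6 h and later times place the 24 h comparison. In the same 10277 genes, limma passed 2 between 5% and 21% oxygen at 6 h (0.0195%), 4321 at 3 d (42%) and 5071 at 6 d (49.3%), each fitted on its own 6 libraries. Genes for which the difference at 24 h departed from that at 6 h numbered 0 in a limma test of the interaction over 12 libraries, with 960 (9.34%) at an unadjusted p under 0.05. P4HA1 differed by 0.27 at 6 h, 0.90 at 24 h, 2.82 at 3 d and 2.34 at 6 d, and EGLN3 by 0.40, 1.02, 3.35 and 2.30 at those times. LDHA, at -0.08 and 0.10 at the first 2 times, differed by 1.76 at 3 d and 1.68 at 6 d, and BNIP3 by -0.13, 0.14, 1.90 and 1.91. DDIT3 had the other sign at the later times, with -0.28 at 6 h, -0.64 at 24 h, 2.25 at 3 d and 2.04 at 6 d, and so did both ferritin chains.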

How the data were processed

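RNA was sequenced as paired 25-base reads after poly-A selection and a Smart-seq2 style preparation, per the labels. The authors made the deposited gene FPKM table with TopHat and the Cufflinks suite (Cuffnorm), per the labels and the submitters' processing notes. No version, genome build, annotation or strand setting was given in the sources used here. The table holds no counts, so depth in reads and counting error are unknown. Groups came from the labels, and columns were matched by their names.

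Values were compared as log2(FPKM + 1), with a pseudocount of 1, in genes with a mean of at least 1 FPKM over the 6 libraries. Tests were made with limma 3.58.1 in R 4.3.3 (trended prior, two-sided, Benjamini-Hochberg over all genes tested, adjusted p under 0.05), with 4 residual degrees of freedom for 6 libraries and 24 for 36. The fits on 36 and on 35 libraries were alternatives to the 6-library test. Further alternatives were the pseudocount (0.1), the filter (none, or 5 FPKM), quantile normalization, TPM, median centring and array weights. So were a replicate block, a fold limit of 1.2, a correction for length and GC content, and leaving out each library. The correction, and all alternatives of the 36-library fit, were chosen after seeing the data.

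The members, the 35 gene lists and the rule for naming genes were chosen with earlier results of these data known. The rule took the genes with the smallest p in each direction among those at 5 FPKM or more in the higher group without overlap (10 per direction), up to 4 per list, the 5 largest in each direction past the threshold in 5% against 1% oxygen, and a fixed set of well known genes. TLN1, FTL and FTH1, and the genes of the set that passed with and without replicate 3 of 21% oxygen, were named after their values were seen, as were SLC6A8, FAM162A, HIGD1A and SLC39A10. Not every gene that the rule named is described. The 6-library test was tried on simulated data with known changes. It found 24.2% of genes changed 1.5-fold, 64.5% of those changed 2-fold and 91.5% of those changed 4-fold. The simulated noise was independent in each gene, without shifts of whole libraries such as those seen here, so it says nothing on their effect. Promoters came from RefSeq tables (GRCh38.p14), and lengths and GC content from GENCODE transcripts, for 96.9% of the genes tested. Plots were made in Python 3.11.15 (matplotlib 3.10.9).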

Additional observations from a re-analysis of the deposited data

How the results depend on the processing

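The count of genes passing between 5% and 21% oxygen, 1 with 6 libraries, was 1002 with the spread of 36 libraries, 2988 with that of 35 (without the shallow replicate 3 of 1% oxygen at 3 d), 3881 with array weights, 4 under quantile normalization, 3 with median centring, 2 with the length and GC correction, and 1 to 38 leaving out 1 library, the most without replicate 1 of 5% oxygen. The 36-library count of 1002 became 2988 without the shallow library, 336 under quantile normalization (226 higher, 110 lower), 1733 after TPM (1721 higher, 12 lower) and 409 after the length and GC correction. Leaving out 1 library gave 50 (replicate 3 of 21% oxygen) to 1375, with 103 without replicate 3 and 342 without replicate 2 of 5% oxygen. For 5% against 1% oxygen the count of 52 became 139 under quantile normalization, 23 after TPM, 85 with median centring, and 11 to 176 leaving out 1 library, with the highest value without replicate 3 of 21% oxygen and 11 to 28 for every other library left out except replicate 1 of 21% oxygen. The test of 24 h against 6 h gave 0, and 0 to 1 with 1 library left out. Same-numbered replicates of 5% and 21% oxygen deviated with correlations of -0.27, -0.13 and -0.06, so no shared deviation was seen. Deviations within a group add up to 0 and are tied to each other, so these values cannot decide whether the samples are paired. A replicate block gave 1 gene with 6 libraries, 922 with 36, 11 for 5% against 1% oxygen and 0 for 24 h against 6 h.

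Signs turned for few named genes, and under the turned sign none passed the 6-library test. After TPM, PGK1 passed the 36-library test with the turned sign (adjusted p 0.0227). It also passed that test with quantile normalization over all 36 libraries (adjusted p 0.02295), a fit whose log2 difference is not given here. Under quantile normalization the log2 difference was 0.31 for PGK1, 0.072 for HBZ, 0.00035 for ALAS2, 0.0051 for MYC, 0.088 for FTL and 0.086 for FTH1. After TPM it was 0.22 for VEGFA, 0.32 for PGK1, 0.12 for EPAS1, 0.34 for ALAS2 and 0.21 for MYC, and after the length and GC correction 0.071 for ALAS2. HIF1A ranged from -0.051 to 0.43 with 1 library left out. List medians below 0 turned under quantile normalization to 0.020 (TCA cycle), 0.15 (histones), 0.066 (ATF4 response), 0.11 (aminoacyl-tRNA synthetases), 0.074 (NRF2 response), 0.033 (proteasome) and 0.12 (epithelial and stromal markers). After TPM, which shifts all genes by a like amount, they were 0.028 (mitochondrial ribosomal proteins), 0.18 (TCA cycle), 0.23 (ribosome biogenesis), 0.25 (S phase), 0.19 (histones), 0.21 (ATF4 response), 0.28 (aminoacyl-tRNA synthetases), 0.23 (NRF2 response), 0.072 (proteasome), 0.15 (interferon response) and 0.22 (epithelial and stromal markers). The cause of these shifts was not tested. Of the values of named genes under the alternatives, 1653 kept direction and side of the threshold, 213 newly passed, 65 no longer passed and 13 turned. With no counts and 3 libraries a group, small differences in weakly expressed genes cannot be resolved.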

Other observations

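Several genes outside the lists above lay apart between 5% and 21% oxygen without overlap, and ranked among the smallest p values of the 6-library test, where each had an adjusted p of 0.161. HIST1H1B, a linker histone, had 73.4, 61.0 and 61.2 FPKM in 5% oxygen against 40.2, 36.1 and 27.97 FPKM in 21% oxygen. FN1, which encodes fibronectin, had 29.3, 31.8 and 28.5 FPKM in 5% oxygen against 21.0, 17.3 and 14.4 FPKM in 21% oxygen, and in 1% oxygen it stood at 30.4 ± 0.989 FPKM. AP2A1, a subunit of the clathrin adaptor, averaged 18.1 ± 3.78 FPKM in 5% oxygen and 8.78 ± 1.27 FPKM in 21% oxygen (SD, n = 3). Of these 3 genes only AP2A1 passed the 36-library test (adjusted p 0.0356, against 0.192 for HIST1H1B and 0.0521 for FN1). None of them passed that test without replicate 3 of 21% oxygen. CALB1, a calcium-binding protein, was lower and tight, with 146, 146 and 139 FPKM in 5% oxygen against 230.0, 210.0 and 235 FPKM in 21% oxygen, and it passed the 36-library test with replicate 3 of 21% oxygen (adjusted p 0.0167) and not without it (0.153). CXCL2, a neutrophil chemokine, had 2.22, 3.40 and 1.69 FPKM in 5% oxygen against 7.87, 6.32 and 5.54 FPKM in 21% oxygen, and its difference had the other sign at 3 d, 1.21 on the log2 scale. The noncoding gene SNHG11 averaged 20.04 ± 0.515 FPKM in 5% oxygen and 31.8 ± 4.27 FPKM in 21% oxygen, and passed that test with the library (0.00692) and not without it (0.122).

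Other gene lists are given by their counts, medians and leading genes. Among all genes tested, 12.1% were higher and 22.4% lower without overlap, and the median log2 difference was -0.03. Of 18 endoplasmic reticulum chaperone genes, 3 were higher and 1 lower without overlap, with a median log2 difference of 0.15, or 0.12 without replicate 3 of 21% oxygen. DNAJB11, a cochaperone of BiP, was uneven in 5% oxygen, at 39.1, 74.4 and 77.3 FPKM against 40.5, 27.3 and 24.3 FPKM in 21% oxygen, so that replicate 1 of 5% oxygen lay with the 21% libraries, and it passed the 36-library test with replicate 3 of 21% oxygen (adjusted p 0.0419) and not without it (0.311). Of 34 S phase genes, 2 were higher and 17 lower without overlap, with a median of -0.20 that was -0.17 without that library and 0.25 after rescaling to TPM (0.36 for all genes), and of 27 genes of G2 phase and mitosis 2 were higher and 9 lower, with a median of -0.14, or -0.07 without it. Of 16 interferon response genes, 1 was higher and 7 lower, and the median of -0.29 became -0.10 without replicate 3 of 21% oxygen. IFITM2, an antiviral membrane protein, had 85.4, 77.8 and 68.6 FPKM in 5% oxygen against 107, 114 and 169 FPKM in 21% oxygen, with an adjusted p of 0.00762 in the 36-library test and 0.153 without that library. The growth regulator MYC averaged 107 ± 11.2 FPKM in 5% oxygen and 126 ± 6.02 FPKM in 21% oxygen, and its sign turned under 2 scalings.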
